A study of Mus musculus with 30 samples.

Results

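The stool bacteria of female Gpr15l-/- (KO) mice were set against those of female wild-type (WT) mice at weaning, at about 4 weeks of age. At that point the mice had not yet been placed in cages shared by both genotypes. The bacteria were read by sequencing amplicons of V4, a variable stretch of the 16S ribosomal RNA gene, and each deposited value is a whole-number count of reads of 1 sequence variant in 1 library. The KO group holds libraries 1 to 5 and the WT group libraries 6 to 10, with 1 stool sample in each. All variants with reads in these 10 libraries were taken except 1 mitochondrial variant, which gave 337 bacterial variants of the 949 in the whole series, in 82 genera and 44 families. The co-housed libraries of the same series, 5 of each genotype taken after 4 to 5 weeks in mixed cages of 2 to 7 mice, held 432 variants and serve below as the comparison.

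Gpr15l encodes a small peptide that epithelial cells of the gut and skin secrete and that binds GPR15, a homing receptor of lymphocytes. The gut community of a mouse is rebuilt around weaning, when milk gives way to solid food and plant polysaccharides reach the colon. Bacteroidales, which break down such polysaccharides, and strictly anaerobic Clostridia, many of which form short-chain fatty acids, then make up most of the community. Pups take up their bacteria largely from the dam, the cage and the littermates. The labels give no cage, litter or dam for these mice, and a relation of litter or cage to the genotype was not tested. The p-values therefore measure only the spread between these samples, which may be technical in part. The genotype could not be checked in the reads, which come from bacteria, and is taken from the labels.

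The deposited table carries no sequences, so each variant is named by genus and table row. A genus called unclassified or unnamed stands for variants that the deposited labels place in the family without a genus name. Levels are shares of the bacterial reads of a library, in percent, and means are given ± SD over 5 libraries. The log2 fold changes are KO over WT from edgeR's quasi-likelihood test, ± SE, on counts scaled to correct for composition, so they can differ in size and even in sign from a ratio of mean shares. A difference was called where the Benjamini-Hochberg adjusted p was under 0.05. Variants and taxa needed at least 10 reads in at least 3 of the libraries fitted. Library depth was 10560 to 34082 reads in the KO and 15665 to 52398 in the WT group. Where a group had 0 reads, a fold is a lower bound against 3 counts per library. Only 2 of the 1251 counts above 0 were equal to 1, so low counts may have been removed before deposit, and these bounds would then be too high.

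A pair of KO libraries stood apart. Library 1 held 54 variants, against 113 to 133 in the other 4 KO and 114 to 196 in the WT libraries. It had 0 reads of 20 variants that were found in all the other 9 libraries, among them 11 variants of Muribaculaceae and 4 of Alistipes. One of the 20 was Prevotellaceae UCG-001 row 22, the leading variant of 8 libraries, with 10.9% to 37.3% of reads in the other 9. Library 5 was led by Mycoplasma row 12 with 24.9%, held only 30.6% Bacteroidales against 60.6% to 85.3% in the others, and had the lowest depth and the highest share of mitochondrial reads, 0.653%. Counts are therefore also given without libraries 1 and 5, a choice made after seeing the data.

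The same families led the community in both genotypes. Prevotellaceae and Muribaculaceae, polysaccharide degraders of the order Bacteroidales, held 23.4% ± 8.32 and 22.9% ± 13.0 of reads in KO and 33.5% ± 3.43 and 28.0% ± 8.41 in WT mice. Prevotellaceae were at 16.3%, 24.6%, 33.1%, 29.4% and 13.7% in KO libraries 1 to 5 and at 34.9%, 31.8%, 32.3%, 29.8% and 38.7% in WT libraries 6 to 10. KO libraries 1, 2, 4 and 5 lay below all WT libraries and library 3 lay among them, and the difference was not called (log2 fold change -1.11 ± 0.50; edgeR adjusted p = 0.0813). Muribaculaceae ranged from 9.88% to 42.3% in KO and from 21.0% to 42.2% in WT libraries and were not called either (edgeR adjusted p = 0.254). Mycoplasmataceae, bacteria without a cell wall, were at 9.89% ± 9.64 and 8.35% ± 5.33, and Bacteroidaceae at 8.51% ± 5.30 and 7.10% ± 4.57, with overlapping ranges. Helicobacteraceae, spiral bacteria of the mucus layer, were at 5.57% ± 3.20 and 4.21% ± 2.74 and Sutterellaceae at 4.04% ± 3.16 and 4.81% ± 3.00. For Mycoplasmataceae, Bacteroidaceae and Helicobacteraceae the fitted difference turned in sign with the scaling, so no direction is given for them.

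Lachnospiraceae and Oscillospiraceae, families of Clostridia that ferment fibre, varied widely among KO mice. Lachnospiraceae were at 2.19%, 4.57%, 11.5%, 3.31% and 14.0% in KO libraries 1 to 5 and between 1.38% and 4.42% in WT libraries. Oscillospiraceae were at 0.0757%, 0.930%, 5.09%, 0.456% and 4.18% in KO and between 0.267% and 1.12% in WT libraries. In both families libraries 3 and 5 lay above all WT libraries and the other KO libraries did not, apart from library 2 of Lachnospiraceae. Neither family was called (edgeR adjusted p = 0.666 and 0.453). Tannerellaceae, relatives of Bacteroides that include Parabacteroides, were at 8.56% in library 1, 0.305% to 1.00% in the other KO libraries and 0 reads to 2.35% in WT libraries (edgeR adjusted p = 0.187). Without library 8 the family was called (log2 fold change 3.24; edgeR adjusted p = 0.0326), and without library 1 the fold change was -0.61.

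**Figure D1:**
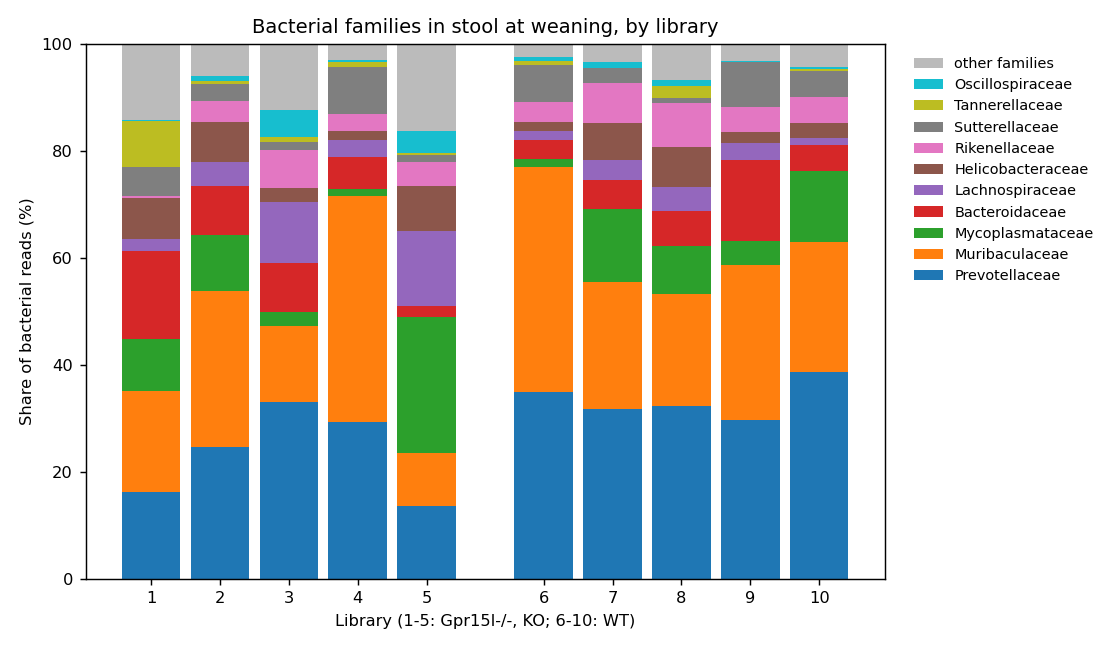
Share of bacterial reads (percent, vertical axis) of the 10 families with the highest mean share, stacked for each weaning library (horizontal axis; 1 to 5 KO, 6 to 10 WT), with all other families in light grey at the top. The 5 WT bars resemble each other more than the KO bars do: library 1 has a wide Tannerellaceae segment (8.56%) and library 5 a wide Mycoplasmataceae segment (25.5%).

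Of 35 families tested, 8 differed by genotype, or 22.9% (edgeR, Benjamini-Hochberg adjusted p under 0.05), with 3 higher (8.57%) and 5 lower (14.3%) in KO mice. Akkermansiaceae, represented by the mucin degrader Akkermansia, was the family whose values did not overlap between the genotypes, 1 of 35 or 2.86%. It was found at 5.68%, 0.731%, 0.0705%, 1.01% and 0.210% in KO libraries 1 to 5, and in WT mice only in library 10, at 0.0106%. The log2 fold change was 9.28 ± 1.69 (edgeR adjusted p = 0.000248), and 7.32 without library 1. Without library 10 the WT group had 0 reads, and no fold is given. Without libraries 1 and 5 it was 7.64 ± 1.64 (edgeR adjusted p = 0.00253), and the mean of the remaining 3 KO mice was 0.605%. Gastranaerophilales, non-photosynthetic gut relatives of the Cyanobacteria, were at 4.75%, 3.09%, 2.17%, 0.151% and 1.82% in KO and at 0.0723%, 0.109%, 0.533%, 0.0544% and 0.0397% in WT libraries. The other 4 KO libraries exceeded all WT libraries and library 4 lay within the WT range (log2 fold change 3.53 ± 1.05; edgeR adjusted p = 0.0126; 2.78 without library 1 and 4.76 without library 8). This call was lost without libraries 1 and 5. Enterobacteriaceae, facultative anaerobes that here consist of Escherichia-Shigella, were found in KO libraries 1 (0.856%) and 2 (0.0587%) and in WT library 8 (0.00382%). Their log2 fold change of 7.20 ± 2.15 (edgeR adjusted p = 0.0127) was 3.34 without library 1, where the call was lost, and rests on 1 WT library with reads.

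Among the families lower in KO mice, Marinifilaceae, here the short-chain fatty acid producer Odoribacter, were at 0.142%, 0.261%, 0.446%, 0.0815% and 0.248% in KO and at 0.353%, 1.01%, 3.00%, 0.588% and 1.30% in WT libraries. Only library 3 reached the range of the WT mice, where library 6 was lowest. The log2 fold change was -3.10 ± 0.74 (edgeR adjusted p = 0.00198), and -2.51 without library 8. Rikenellaceae, bile-tolerant Bacteroidales, were at 0.251%, 3.79%, 7.25%, 3.20% and 4.47% in KO and between 3.69% and 8.19% in WT libraries. KO libraries 1 and 4 lay below all WT libraries and the other 3 among them, and the call (-1.47 ± 0.53; edgeR adjusted p = 0.039) was lost under 14 of 19 alternatives, among them the fits without library 1, 5, 7, 8 or 9.

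Clostridia UCG-014 and RF39, lineages known mainly from sequences, and Flavobacteriaceae had 0 reads in all 5 KO mice. Clostridia UCG-014 were found in 4 WT mice, at 0.234%, 0.109%, 0.380% and 0.0291% in libraries 6, 7, 8 and 10. They were at least 9.60-fold higher in WT mice, 5.94-fold without library 8 (edgeR adjusted p = 0.000914). RF39 was found in libraries 6, 8 and 10 at 0.0681%, 0.172% and 0.320%, at least 7.16-fold higher in WT mice and 3.83-fold without library 10 (edgeR adjusted p = 0.00457). Flavobacteriaceae were found in libraries 6, 8 and 9 at no more than 0.0439%, near the level that 3 counts in each KO library allow. Without libraries 1 and 5, 4 families were called, all of them among the 8: Akkermansiaceae, Marinifilaceae, Clostridia UCG-014 and RF39. With library size as the only scaling, 11 families were called as higher and 4 as lower in KO mice, 15 in all, while the median log2 fold change over families moved by 0.60.

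Of 72 genera tested, 17 differed, or 23.6%, with 6 higher (8.33%) and 11 lower (15.3%) in KO mice (edgeR, Benjamini-Hochberg adjusted p under 0.05). With library size as the only scaling there were 27 calls (17 higher, 10 lower), and the median over genera moved by 0.76. Besides Akkermansia, Gastranaerophilales and Escherichia-Shigella, the genera higher in KO mice were Blautia, Ruminococcus and unclassified Tannerellaceae. Blautia, an acetate-forming genus of the Lachnospiraceae, was at 1.26%, 0.414%, 0.0352%, 0.0211% and 0 reads in KO libraries 1 to 5 and was found in WT library 6 alone, at 0.0298%. It was called under all 18 alternatives in which it was tested (log2 fold change 5.08 ± 1.36, 3.77 without library 1; edgeR adjusted p = 0.00364). Its KO reads came from different variants, row 275 in library 1 (1.26%) and row 371 in libraries 2 to 4 (0.0211% to 0.414%). Ruminococcus, a fibre degrader, was found in KO libraries 2 (0.158%) and 3 (0.0176%) and in 0 WT mice, and its call (edgeR adjusted p = 0.0282) was lost without library 2, 6, 8 or 10. Unclassified Tannerellaceae reached 4.40% in library 1 and stayed at or under 0.0940% in the remaining libraries of both genotypes. Their log2 fold change was 4.02 ± 1.50 (edgeR adjusted p = 0.0409) and 0.69 without library 1, and the call was lost without library 1 or any 1 of the 5 WT libraries.

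Among the genera lower in KO mice, the Rikenellaceae RC9 gut group, found in mammalian guts on fibre-rich diets, showed no overlap between the genotypes. It was at 0 reads, 0.0822%, 0.0411%, 0.0513% and 0 reads in KO libraries 1 to 5, and at 0.532%, 1.10%, 1.19%, 1.67% and 0.527% in WT libraries 6 to 10. Its log2 fold change was -5.44 ± 1.08 (edgeR adjusted p = 0.000138), between -5.94 and -4.86 with any 1 library left out, and -4.73 ± 1.15 without libraries 1 and 5. The genotypes did not overlap for 3 of the 67 genera tested that had reads at weaning, or 4.48%. The other two were Akkermansia and, chosen after its values were seen, Desulfovibrio, a sulphate reducer at 0.137% to 0.388% in KO and 0.0639% to 0.123% in WT mice that was not called (edgeR adjusted p = 0.819). Odoribacter was lower by -3.33 ± 0.83 on the log2 scale, with the values given for its family. Ureaplasma, a wall-less relative of Mycoplasma, was at 0.573%, 0.349%, 0.112%, 0.169% and 0.543% in KO and at 0.302%, 3.15%, 1.40%, 0.474% and 1.46% in WT libraries. Its ranges overlapped, and its call (-2.65 ± 0.92; edgeR adjusted p = 0.0273) was lost under both other scalings and with library 2, 3 or 7 left out. The call was also lost without libraries 1 and 5. Fits of the weaning libraries alone, or of the weaning and co-housing libraries, did not give it either. Ureaplasma consists of row 5 alone, which was not called among the variants.

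The other 8 genera lower in KO mice had 0 reads in all 5 KO libraries and were rare in WT mice. Besides Clostridia UCG-014 and RF39, with the values given above, these were unclassified Erysipelotrichaceae in 4 WT mice (a mean of 0.0505% ± 0.0365 and a bound of 3.22-fold; edgeR adjusted p = 0.00334) and the NK4A214 group in 3 (0.0374% ± 0.0429, at least 2.39-fold, 1.36-fold without library 7; edgeR adjusted p = 0.00172). UCG-005, like the NK4A214 group a member of the Oscillospiraceae, stood at 0.0255% ± 0.0278 in 3 WT mice and Tuzzerella, of the Lachnospiraceae, at 0.0188% ± 0.0267 in 2. Without library 8 for UCG-005 and without library 7 for Tuzzerella, the WT mean lay under the level that 3 counts in each KO library allow. Unclassified Flavobacteriaceae were at 0.0176% ± 0.0203 in 3 WT mice, and the [Eubacterium] nodatum group at 0.0153% ± 0.0249 in 2. The mean of the nodatum group itself, and that of Flavobacteriaceae without library 8, also lay under that level. The call of the nodatum group was lost without library 8 or any 1 of the KO libraries. Without libraries 1 and 5, 10 of the 17 genera were called and no others. They were Akkermansia, Blautia and Ruminococcus, higher in KO mice, and Odoribacter, the RC9 gut group, Clostridia UCG-014, RF39, unclassified Erysipelotrichaceae, the NK4A214 group and Tuzzerella, lower in KO mice.

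**Figure D2:**
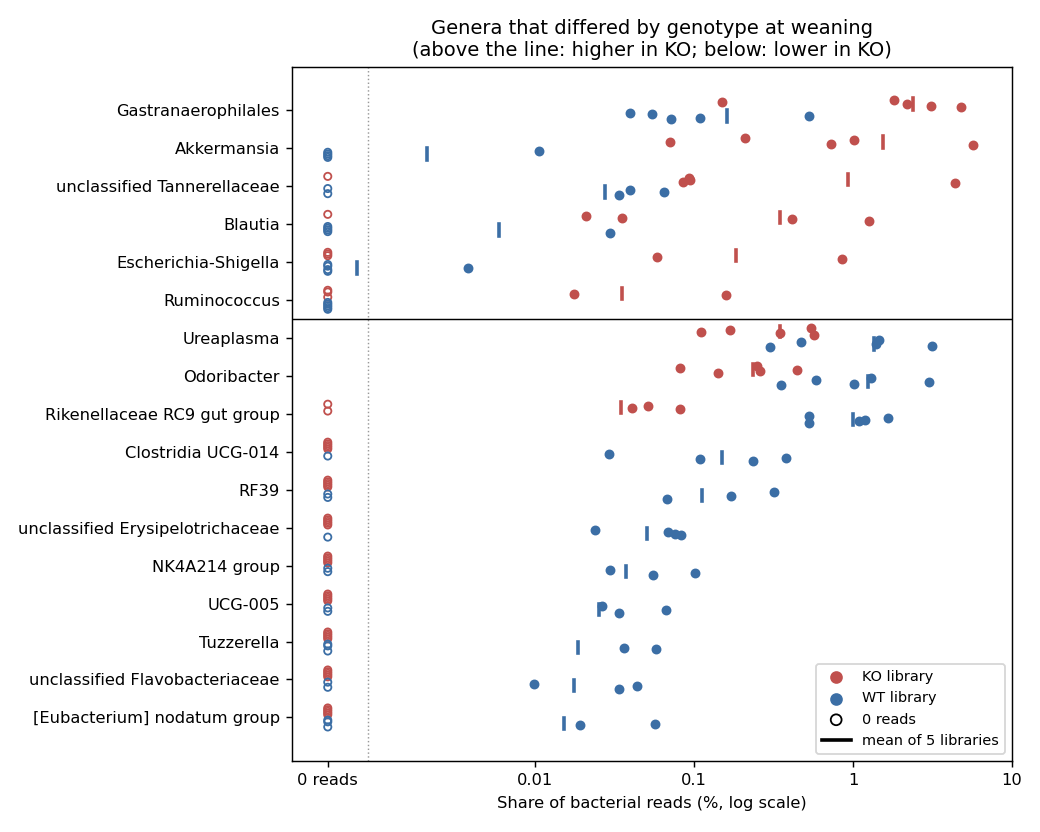
Share of bacterial reads (percent, log scale) of the 17 genera that differed by genotype, with 1 point for each KO (red) and WT (blue) library, open points at the left for 0 reads and a bar at the mean of 5 libraries. Akkermansia and the Rikenellaceae RC9 gut group show no overlap, 8 of the genera lower in KO mice have 0 reads in all 5 KO libraries, and the KO mean of unclassified Tannerellaceae lies far above 4 of its 5 KO points.

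The most abundant genera were not called. Prevotellaceae UCG-001 was at 21.9% ± 8.08 in KO and 32.1% ± 3.31 in WT mice (edgeR adjusted p = 0.0721). Unnamed Muribaculaceae were at 20.1% ± 12.9 and 27.2% ± 7.92, and Parasutterella, a betaproteobacterium, at 4.04% ± 3.16 and 4.81% ± 3.00. Alistipes, of the Rikenellaceae, was at 0.241%, 2.63%, 6.53%, 2.32% and 3.68% in KO and between 2.07% and 6.73% in WT libraries, so that only library 1 lay outside the WT range (edgeR adjusted p = 0.13). The Lachnospiraceae NK4A136 group, Clostridia common in the mouse gut, had 0 reads in library 1, 0.474% to 4.74% in the other KO libraries and 0.879% to 2.92% in WT libraries (edgeR adjusted p = 0.283). Unclassified Lachnospiraceae had 0 reads in library 1 and 1.29% to 6.55% in the other KO libraries against 0.238% to 1.33% in WT libraries (edgeR adjusted p = 0.178). This genus was called without library 1 (log2 fold change 1.74; edgeR adjusted p = 0.0334) and with library size scaling (2.45; edgeR adjusted p = 0.0174), and limma-voom gave -0.21. Without library 4, Prevotellaceae UCG-001 and unnamed Muribaculaceae were called as lower in KO mice (edgeR adjusted p = 0.0127 and 0.0168), and limma-voom also called Prevotellaceae UCG-001 and Alistipes (adjusted p = 0.0331 and 0.0490). Muribaculum was at 2.76% ± 3.02 and 0.823% ± 0.520, with 7.81% in library 1 (edgeR adjusted p = 0.323).

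Sequence variants were compared next. Of the 337 variants, 123 were found in both genotypes (36.5%), 76 in KO mice only and 138 in WT mice only. Only 17 were found in all 10 mice, and 114 were found in a single mouse, 40 of them in library 8, the most deeply sequenced. Variants found in at least 3 mice of 1 genotype and in 0 of the other numbered 18 for KO and 37 for WT mice. With every library thinned to 10491 reads, 326 variants remained, of which 120 were found in both genotypes, 79 in KO only and 127 in WT only. Variants of KO mice only held 26.5%, 8.24%, 11.6%, 4.55% and 11.7% of reads in libraries 1 to 5. Those of WT mice only held 6.66%, 13.9%, 13.2%, 12.8% and 6.53% in libraries 6 to 10. The 17 variants found in all 10 mice held 22.7% to 42.2% of reads. Mycoplasma row 12, Parasutterella row 424, Helicobacter rows 151 and 153, and 3 variants of unnamed Muribaculaceae, rows 65, 73 and 90, were among them.

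**Figure D3:**
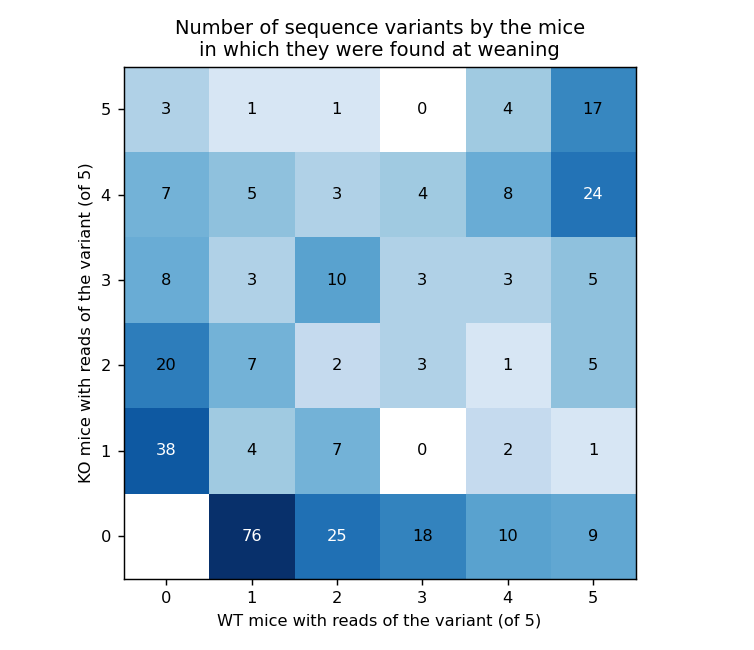
Number of sequence variants by how many of 5 WT mice (horizontal axis) and 5 KO mice (vertical axis) had reads of them, with darker cells for more variants. The bottom row (WT only) sums to 138 variants, 76 of them in a single mouse. The left column (KO only) sums to 76, 38 of them in a single mouse. All other cells hold variants found in both genotypes, with the 17 found in all 10 mice at the top right.

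Of 292 variants tested, 250 of them with reads at weaning, 61 differed by genotype, or 20.9% (edgeR, Benjamini-Hochberg adjusted p under 0.05), and 24.4% of the 250. Of these, 20 were higher (6.85% of those tested) and 41 lower (14.0%) in KO mice, and 124 had an unadjusted p under 0.05. In 58 of the 61, 1 genotype had 0 reads. The variants were not spread evenly over the mice: of the 20 higher in KO mice, 4 were found in library 1, 12 in library 2, 20 in library 3, 14 in library 4 and 19 in library 5. Of the 20, 5 were found only in libraries 3 and 5. Of the 41 lower in KO mice, 27, 21, 36, 29 and 27 were found in libraries 6 to 10, 2 each in KO libraries 2 and 4, and 0 in KO libraries 1, 3 and 5. Together the 20 held 27.6%, 7.85%, 10.2%, 4.82% and 10.6% of reads in libraries 1 to 5. Together the 41 held 8.75%, 14.3%, 12.4%, 17.2% and 7.30% in libraries 6 to 10. Leaving out library 3 reduced the called variants to 27, library 5 to 36, library 6 to 38 and library 8 to 37, and limma-voom called 37. Without libraries 1 and 5 it fell to 14, all of them among the 61, with 6 higher and 8 lower in KO mice.

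The genotypes did not overlap for 18 of the 250 variants, or 7.2%. Of the 18, 4 were called as higher and 11 as lower in KO mice, and 3 were not called. The 4 were Prevotellaceae UCG-001 row 25, Gastranaerophilales row 168, Akkermansia row 4 and Clostridia vadinBB60 group row 181. Row 168 was at 4.75%, 2.33%, 1.40%, 0.0936% and 0.848% in KO libraries 1 to 5 with 0 reads in the WT group, so it was at least 156-fold higher in KO mice and 96.7-fold without library 1 (edgeR adjusted p = 0.00179). The other 3 variants of Gastranaerophilales, rows 169, 170 and 171, were found in both genotypes, had 0 reads in library 1 and were not called. Row 181, of an uncultured group of Clostridia, was at 0.904% in library 1, 0.0393% to 0.362% in the other KO libraries and 0 reads in WT mice. It was at least 23.9-fold higher in KO mice, 11.2-fold without library 1 (edgeR adjusted p = 0.0241), and the call was lost without libraries 1 and 5, as was that of Akkermansia row 4.

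Of the 11 variants lower in KO mice without overlap, 9 had 0 reads in all KO mice. Bacteroides row 48, labelled Bacteroides acidifaciens, a mucus-associated commensal of mice, was at 0.979%, 4.15%, 1.24%, 5.20% and 0.580% in WT libraries 6 to 10, a level at least 155-fold above that of KO mice (edgeR adjusted p = 0.000493). Alistipes row 137 was at 0.851%, 3.15%, 0.770%, 0.776% and 0.765% in WT libraries, at least 80.7-fold higher and 50.5-fold without library 7 (edgeR adjusted p = 0.000493). Odoribacter row 97 was at 0.145%, 0.639%, 1.70%, 0.133% and 0.900% in WT libraries, at least 44.9-fold higher and 29.0-fold without library 8. Each of the 3 was found in all WT mice and in no KO mouse. A rarer Odoribacter variant showed the same at 0.0468% to 0.204% (edgeR adjusted p = 0.00576), and row 130 was found in 4 WT mice and 0 KO mice. Odoribacter row 102 was found in all 10 mice and was not called, so all Odoribacter reads of KO mice came from row 102. The RC9 gut group row 165 was at 0.460%, 0.996%, 1.12%, 1.51% and 0.492% in WT libraries and at 0.0147% and 0.0393% in KO libraries 2 and 4, with 0 reads in the other 3. It was called (log2 fold change -6.42; edgeR adjusted p = 0.0113) until libraries 1 and 5 were left out. Muribaculaceae row 119 was at 0.370% to 4.31% in WT libraries and at 0.202% and 0.184% in KO libraries 2 and 4, and its call (edgeR adjusted p = 0.0432) was lost in 11 of 18 alternatives.

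In Bacteroides the genus was not called while 1 of its variants was. The genus was at 16.5%, 9.11%, 9.05%, 5.95% and 2.02% in KO and at 3.50%, 5.48%, 6.54%, 15.0% and 4.92% in WT libraries, with wide overlap (edgeR adjusted p = 0.465). Row 48 was found in WT mice only. Row 47, which carries the same species label, was found in KO libraries 2 to 5 at 0.410% to 4.60% and in WT libraries 8 to 10 at 0.235% to 2.02% (edgeR adjusted p = 0.74), and was named after its values were seen. Row 45, labelled Bacteroides sartorii, was at 11.2% in library 1, 0.534% to 2.84% in the other KO libraries and 0 reads to 1.45% in WT libraries (edgeR adjusted p = 0.482). Row 49 had 0 reads in library 1 and 8.43% in library 9 (edgeR adjusted p = 0.29). Library 1 thus held its Bacteroides as rows 44 and 45 alone.

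**Figure D4:**
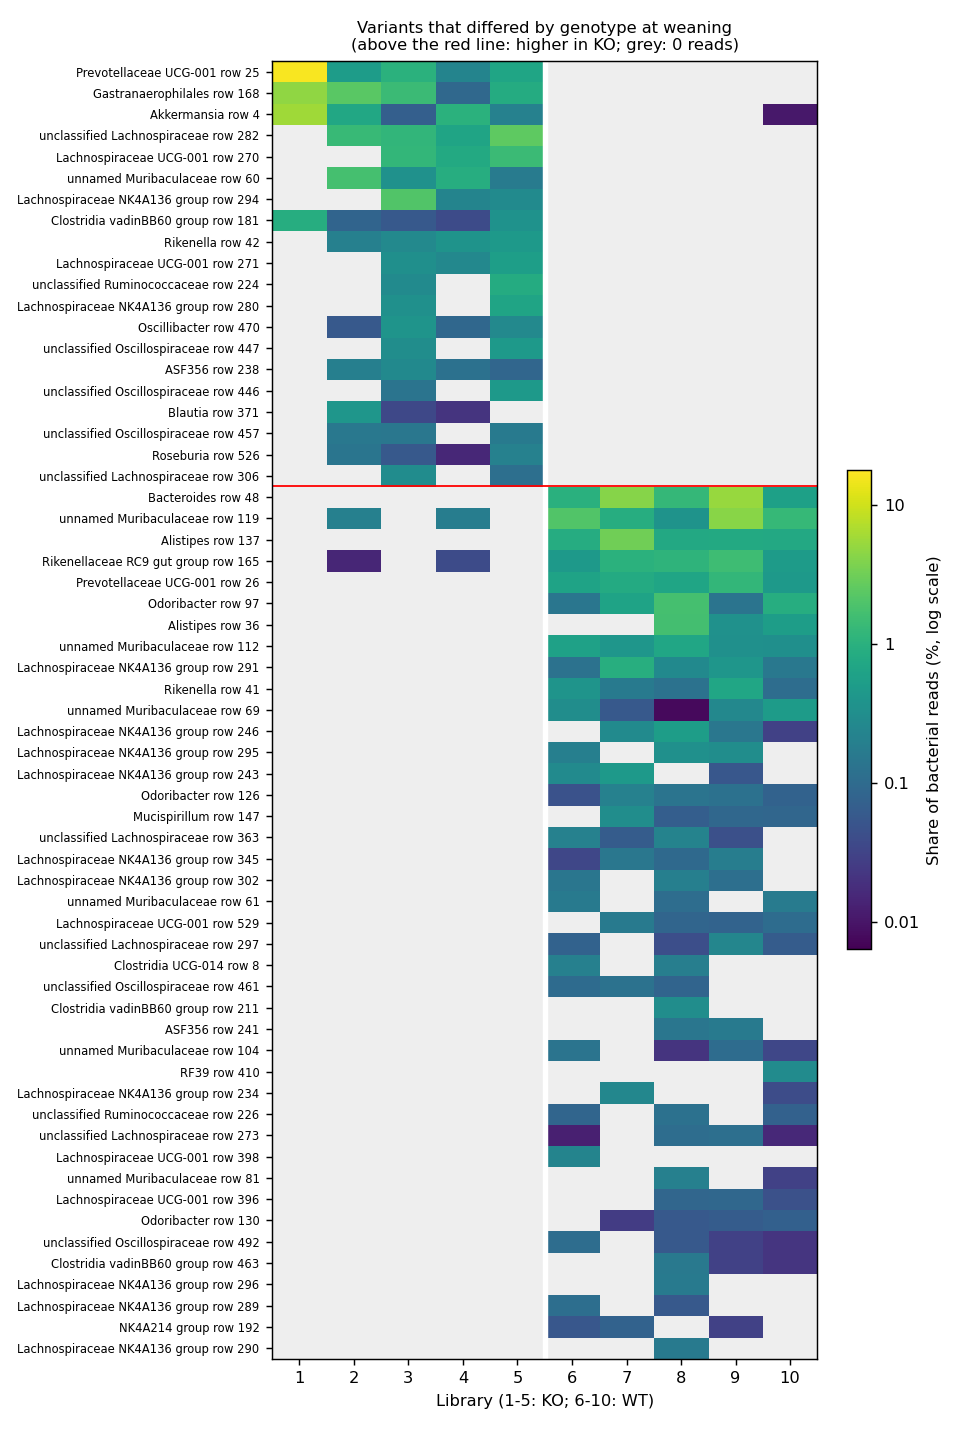
Share of bacterial reads (colour, percent on a log scale) of the 61 variants that differed by genotype (rows, named by genus and table row) in each weaning library (columns), with grey for 0 reads. The 20 variants higher in KO mice are above the red line, and most of them are grey in library 1; the 41 lower in KO mice are below it.

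In 10 genera some variants were higher and others lower in KO mice. In Prevotellaceae UCG-001, row 25 was at 16.2%, 0.514%, 0.999%, 0.230% and 0.677% in KO libraries 1 to 5 and had 0 reads in WT mice. Row 26 was at 0.643%, 0.817%, 0.680%, 1.20% and 0.471% in WT libraries 6 to 10 and had 0 reads in KO mice. Each was thus found in all mice of 1 genotype and in none of the other. Row 25 was at least 309-fold higher in KO mice, 50.03-fold without library 1, and row 26 was higher in WT mice by at least 48.7-fold (edgeR adjusted p = 0.000493 for both). Row 22 had 0 reads, 21.9%, 30.3%, 27.5% and 10.9% in KO libraries 1 to 5 and 28.1% to 37.3% in WT libraries, and was not called (edgeR adjusted p = 0.397). In library 1 all reads of the genus came from row 25. DESeq2 did not call row 25.

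Rikenella, a further genus of the Rikenellaceae, held row 42 in KO libraries 2 to 5 at 0.200%, 0.264%, 0.377% and 0.448%, and row 41 in WT libraries 6 to 10 at 0.387%, 0.160%, 0.126%, 0.697% and 0.109%. Row 42 had 0 reads in WT mice and row 41 had 0 reads in KO mice, so these variants were not found together in any mouse. Row 42 was at least 21.3-fold higher in KO and row 41 at least 18.9-fold higher in WT, 12.5-fold without library 9 (edgeR adjusted p = 0.0185 and 0.00454). Rikenella row 143, labelled Rikenella microfusus, was found in all 10 mice at 0.419% ± 0.308 and 0.262% ± 0.113 and was not called. In unnamed Muribaculaceae, row 60 was at 1.72%, 0.347%, 0.900% and 0.172% in KO libraries 2 to 5 and had 0 reads in library 1 and in WT mice (at least 51.9-fold, 29.3-fold without library 2; edgeR adjusted p = 0.00232). Row 112 was at 0.592%, 0.415%, 0.701%, 0.341% and 0.331% in WT libraries and had 0 reads in KO mice (at least 30.4-fold; edgeR adjusted p = 0.00378). Of the 55 variants of the group, 43 were tested, 1 of which was higher and 6 lower in KO mice, or 16.3% against 24.4% over all variants with reads at weaning. The 6 were rows 61, 69, 81, 104, 112 and 119, and rows 65, 73 and 90, its most abundant variants, were found in all mice and not called.

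Lachnospiraceae held the most called variants, 9 higher and 17 lower of 70 tested, or 37.1% against 24.4% over all variants with reads at weaning. In the NK4A136 group, 2 variants were higher and 10 lower in KO mice, of 22 tested, which is 54.5%. Row 294 was at 2.06%, 0.230% and 0.286% in KO libraries 3 to 5 (at least 42.6-fold, 10.7-fold without library 3), and row 280 at 0.341% and 0.648% in libraries 3 and 5, with 0 reads in the other libraries. Rows 291 (0.372% ± 0.319), 246 (0.198% ± 0.217), 295 (0.168% ± 0.163), 243 (0.158% ± 0.202), 345 (0.0919% ± 0.0760) and 302 (0.0910% ± 0.0882) led the 10 lower variants, all with 0 reads in KO mice. Row 291 was found in all 5 WT mice, at 0.128% to 0.907%. Rows 234, 289, 290 and 296 were found in no more than 2 WT mice, rows 290 and 296 in library 8 alone. A call that rests on 1 mouse, as here and for rows 398 and 211 below, does not describe the genotype as a whole. Row 265, the most abundant variant not called, was at 0.340%, 0.446% and 1.80% in KO libraries 2, 3 and 5 and at 0.147% and 0.0401% in WT libraries 7 and 8 (edgeR adjusted p = 0.174). Without libraries 1 and 5 none of the 12 NK4A136 variants was called by edgeR, and row 291 was lost without library 3 or 5 already.

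In Lachnospiraceae UCG-001 all 5 variants tested were called. Rows 270 and 271 were found in KO libraries 3 to 5, at 1.20%, 0.779% and 1.42% and at 0.335%, 0.260% and 0.534%. Rows 396, 398 and 529 were found in WT mice only, row 398 in library 6 alone and row 529 in libraries 7 to 10 at 0.0791% to 0.160%. No mouse thus held UCG-001 variants of both kinds. Row 21, the only other variant of the genus, was at 0.00573% in library 8 and was not tested. Among unclassified Lachnospiraceae, row 282 was at 1.32%, 1.19%, 0.649% and 2.45% in KO libraries 2 to 5 and had 0 reads in library 1 and in WT mice (at least 92.8-fold; edgeR adjusted p = 0.00378), and it was called under all 18 alternatives. Row 306 was found in KO libraries 3 and 5, and rows 273, 297 and 363 in 4 WT mice each. Row 352, at 3.14%, 0.196% and 3.01% in KO libraries 3 to 5 and 0.0346% to 0.220% in 4 WT libraries, was not called (edgeR adjusted p = 0.208). In ASF356, row 238 was found in KO libraries 2 to 5 (0.0858% to 0.276%) and row 241 in WT libraries 8 and 9 (0.143% and 0.163%), while row 240, in library 10 only, was not called.

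In the remaining genera with calls both ways, unclassified Oscillospiraceae had rows 446 and 447 in KO libraries 3 and 5, row 457 in KO libraries 2, 3 and 5, and rows 461 and 492 in WT mice. The highest of these was row 446 with 0.467% in library 5, and rows 461 and 492 stayed at or under 0.128%. Row 495, found in KO libraries 2 to 5 and in 4 WT mice, was not called (edgeR adjusted p = 0.531). Unclassified Ruminococcaceae had row 224 at 0.282% and 0.839% in KO libraries 3 and 5 and row 226 at 0.0741% to 0.120% in WT libraries 6, 8 and 10, while row 203 was found in both genotypes and not called. In the Clostridia vadinBB60 group, row 181 stood against rows 211 and 463, which were found in WT mice only, row 211 in library 8 alone. Row 175, in WT libraries 7 and 8, was not called (edgeR adjusted p = 0.0527). Of all variants in these 10 genera, the calls that held in every setting tested were those of Prevotellaceae UCG-001 row 26, Rikenella row 41, unclassified Lachnospiraceae row 282 and Muribaculaceae rows 60 and 112. Over all 61 variants there were 11 such, the other 6 being Gastranaerophilales row 168, Bacteroides row 48, Alistipes rows 36 and 137, Odoribacter row 97 and the rarer Odoribacter variant found in all 5 WT mice.

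Groups of bacteria with a shared way of life were described by their summed shares, without a test. Bacteroidales held 61.1% ± 18.8 in KO and 76.3% ± 6.08 in WT mice, with 3 variants higher and 15 lower of 78 tested, or 23.1%, close to the 24.4% over all variants with reads at weaning. Library 5, at 30.6%, was lowest, and libraries 4 and 6, at 81.7% and 85.3%, were highest. A list of butyrate-forming Clostridia, genera such as Roseburia and Oscillibacter whose product feeds the colonic epithelium, did not hold the NK4A136 group or unclassified Lachnospiraceae. Its genera were at 0.923%, 0.525%, 1.86%, 0.438% and 2.19% in KO and at 0.285%, 0.249%, 0.516%, 0.153% and 0.111% in WT libraries. Library 4 alone of the KO mice lay within the WT range, and in library 1 all of these reads came from Lachnoclostridium row 314. Of 17 variants tested, Oscillibacter row 470 (0.161% in KO) and Roseburia row 526 (0.0843% in KO) were higher in KO mice, or 11.8% against 24.4% over all variants with reads at weaning. An unadjusted p under 0.05 was found for 9 of the 17 and for 124 of the 250. The call of row 526 (edgeR adjusted p = 0.0492) was lost without any 1 of the 10 libraries.

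Genera associated with the mucus or the epithelium were Akkermansia, Mucispirillum, Helicobacter and Candidatus Arthromitus. They summed to 13.6%, 8.48%, 3.06%, 2.87% and 15.2% in KO and to 1.94%, 7.16%, 7.84%, 2.18% and 2.99% in WT libraries, with overlap. Of 9 variants, Akkermansia row 4 was higher and Mucispirillum row 147 lower in KO mice, or 22.2% against 24.4% over all variants with reads at weaning. Row 147 was found in WT libraries 7 to 10 at 0.0668% to 0.306% (edgeR adjusted p = 0.0104) and had 0 reads in KO mice, while Mucispirillum row 146 was found in all 5 KO mice, at 6.47% in library 5 and no more than 0.411% elsewhere, and in WT libraries 6 and 8. Helicobacter row 155, labelled Helicobacter typhlonius, was found in library 1 alone, at 2.20% (edgeR adjusted p = 0.063). Lactic acid bacteria, which thrive on milk sugars, were at 0.0667% to 0.390% in KO and 0.124% to 1.49% in WT mice. By edgeR 0 of their 3 variants tested were called, 0 had an unadjusted p under 0.05, and DESeq2 and limma-voom called 0. Proteobacteria with Desulfobacterota were at 5.96% ± 2.33 and 5.24% ± 3.12, with 0 of 9 variants called by edgeR, 1 with an unadjusted p under 0.05 and 0 by DESeq2 or limma-voom. Erysipelotrichales were at 0.0876% in KO library 4, 0 reads in the other KO libraries and 0.0238% to 0.121% in WT libraries, with 0 of 2 variants called by edgeR, DESeq2 or limma-voom and 2 with an unadjusted p under 0.05. Mycoplasmatales were at 1.18% to 25.5% and 1.40% to 13.6%, with 0 of 2 variants called by any of the 3 tools and 0 with an unadjusted p under 0.05.

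The community as a whole was compared by distances between libraries. On Bray-Curtis distances over variants, which weigh shares of reads, genotype took 23.4% of the variation (exact permutation over all splits of 5 against 5, p = 0.00794, the smallest they allow; 0.0132 adjusted over 5 measures). On Jaccard distances after thinning, which weigh only which variants are present, it took 32.4% (exact permutation p = 0.00794, adjusted 0.0132). With reads summed to genera it took 19.5% (exact permutation p = 0.111) and to families 16.0% (exact permutation p = 0.19), and neither passed. For each of these distances, the part taken averaged 11.1% over all splits of 5 against 5, a level set by the number of libraries alone. The values for genotype are to be read against that level. On Jaccard distances genotype took 25.3% over genera and 31.9% over families (exact permutation p = 0.00794 for each, unadjusted and outside the 5 measures). The Bray-Curtis distance averaged 0.575 among KO mice, 0.315 among WT mice and 0.522 between them. The lowest of all, 0.259, was between KO library 4 and WT library 6, under the lowest WT pair (0.263) and KO pair (0.312). KO libraries 2, 3 and 4 lay closer on average to WT libraries (0.405, 0.447 and 0.372) than to the other KO libraries (0.480, 0.515 and 0.523). Those KO means include libraries 1 and 5, whose pairs with libraries 2, 3 and 4 lay between 0.489 and 0.796. Among themselves, libraries 2, 3 and 4 were nearer, at 0.396 (2 and 3), 0.312 (2 and 4) and 0.380 (3 and 4). All 9 pairs that include library 1 lay at 0.682 or above. On Jaccard distances the means were 0.555, 0.4996 and 0.673, and the lowest distance between genotypes was 0.567, above all pairs of WT mice, which reached 0.556. The permutation test also responds to unequal spread, which is seen here, and its p cannot separate a shift from spread. With any 1 library left out genotype took 21.7% to 29.8% on Bray-Curtis distances (exact permutation p at most 0.0317).

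**Figure D5:**
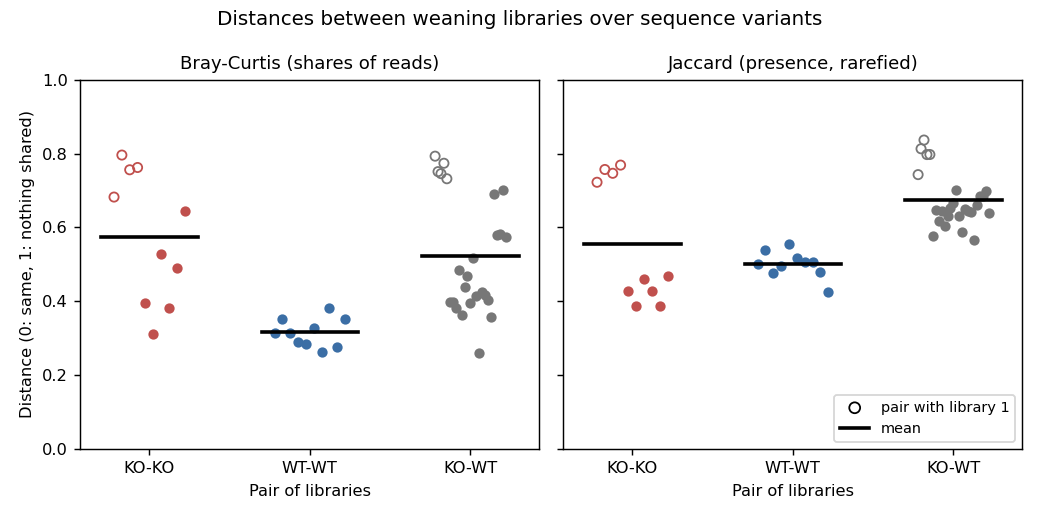
Distance between pairs of weaning libraries (vertical axis, 0 for the same and 1 for nothing shared) over sequence variants, by shares of reads (left) and by presence after thinning (right), for KO pairs, WT pairs and mixed pairs; open points are pairs with library 1 and bars are means. Pairs with library 1 are the highest among the KO pairs on both measures. On the left the lowest pair of all is a mixed pair, and on the right the mixed pairs lie above all WT pairs.

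For diversity within a mouse, group means were tested by exact permutation, two-sided, with p adjusted over 5 measures. At 10491 reads the number of variants expected was 52.9, 131, 132, 124 and 113 in KO and 123, 113, 186, 119 and 135 in WT libraries. Library 1 was lowest and library 8 highest, and the groups overlapped (exact permutation p = 0.365). Shannon indices averaged 3.33 ± 0.218 in KO and 3.23 ± 0.170 in WT libraries (p = 0.437 by the same exact permutation). The inverse Simpson index, the effective number of dominant variants, was 13.8, 13.4, 9.68, 9.74 and 11.5 in KO and 8.50, 9.10, 9.37, 9.36 and 6.24 in WT libraries. All KO libraries lay above all WT libraries (exact permutation p = 0.00794, adjusted 0.0397). The adjusted p was 0.0794 to 0.198 without any 1 of the WT libraries. The difference was 2.42 without libraries 1 and 5, and the unadjusted p of 0.0179 was the smallest that 3 against 5 libraries allow, so this subset could not pass after adjustment. The share of the leading variant was 24.2% ± 5.43 in KO libraries against 31.4% ± 3.53 (exact permutation p = 0.0317, adjusted 0.0794), and without library 3 this was called, with an adjusted p of 0.0198. The number of variants needed to reach 50% of reads was 5.6 ± 1.52 and 4.4 ± 1.14 (exact permutation p = 0.302).

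Whether the differences of weaning were found in co-housed mice was tested as an interaction, the KO minus WT difference at weaning less that after co-housing. Mice are not identified across times in the labels, so the libraries were treated as independent. By edgeR 18 of 292 variants passed, or 6.16%, 3 of 72 genera (4.17%) and 1 of 35 families (2.86%). The genera Akkermansia and Escherichia-Shigella had 0 reads in all co-housed mice. Their interaction could not pass whatever the change (SE 15711 and 18346), so these counts do not cover them. Among the 18 variants, ASF356 row 240, NK4A136 group row 286 and Roseburia row 540 were not called at weaning (edgeR adjusted p = 0.0969, 0.0557 and 0.130). Without libraries 1 and 5, 4 variants passed. Clostridia UCG-014, with 0 reads in KO mice at weaning, was found in 3 co-housed KO mice at a mean of 0.185% ± 0.346 and in 5 co-housed WT mice at 0.0923% ± 0.0440 (edgeR adjusted p = 0.00159 for the interaction of the genus). Unclassified Erysipelotrichaceae were found in 3 co-housed KO mice (0.134% ± 0.209) and 1 co-housed WT mouse (0.0136% ± 0.0304; edgeR adjusted p = 0.00159 for the interaction). Both rest on 0 reads in KO mice at weaning, so no size is given for them. Ureaplasma was at 0.0219% to 4.77% in co-housed KO and 0.0473% to 0.394% in co-housed WT mice, an interaction of -4.84 ± 1.29 (edgeR adjusted p = 0.00902). The Ureaplasma and Erysipelotrichaceae interactions were lost without libraries 1, 5, 11 and 19 (edgeR adjusted p = 0.165 and 0.0751). In limma-voom those of Clostridia UCG-014 and Ureaplasma were lost (adjusted p = 0.215 and 0.227).

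The variants called were looked for in co-housed mice. Of the 19 variants higher in KO mice that had 0 reads in WT mice at weaning, 17 were found in co-housed WT mice and 18 in co-housed KO mice. Of the 39 lower in KO mice that had 0 reads in KO mice at weaning, 29 were found in co-housed KO mice and 38 in co-housed WT mice. Muribaculaceae row 61 was found in neither. Tested variants found in 1 genotype at weaning but not called gave 20 of 22 KO-only variants in co-housed WT mice and 45 of 53 WT-only variants in co-housed KO mice. Reads in co-housed mice also counted towards the filter for testing. Together the 20 variants higher in KO mice held 2.98% ± 2.42 of reads in co-housed KO and 1.83% ± 1.01 in co-housed WT mice, against 12.2% ± 8.89 and 0.00212% ± 0.00474 at weaning. Together the 41 lower variants held 13.2% ± 8.49 and 23.6% ± 8.71, against 0.0881% ± 0.121 and 12.0% ± 4.03. Both sets were chosen by their difference in the weaning libraries, so the gap in their summed shares at weaning follows from that choice. A smaller gap in other libraries does not by itself show a change. Bacteroides row 48 was found in 4 co-housed KO mice at a mean of 0.522% and in 3 co-housed WT mice at 0.313%. Muribaculaceae row 60 was found in 4 co-housed KO mice (0.146%) and 5 co-housed WT mice (0.523%). Akkermansia row 4 had 0 reads in all 10 co-housed mice.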

How the data were processed

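Fecal DNA was amplified over the V4 part of the bacterial 16S gene and sequenced in paired ends on a MiSeq, per the labels' protocols. The deposited table holds raw read counts, 1 row for each variant and 1 column for each library, with taxonomic labels, per the file headers. Of its 3697 rows, 2744 had 0 reads in the columns used here. Denoiser, taxonomy reference and versions: not given in the sources used here. R 4.5.1 and limma are named in the submitters' processing notes.

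Counts were summed to genera and families, and 1 mitochondrial row was left out. Features with at least 10 reads in at least 3 libraries were fitted with edgeR 4.0.16 (R 4.3.3; TMMwsp scaling, robust quasi-likelihood test, 1 coefficient per genotype and time, Benjamini-Hochberg threshold 0.05). Genera and families were fitted over all 30 libraries. Variants were fitted over the 20 weaning and co-housing libraries, since the re-separation libraries share 0 variants with them. Distances and diversity used exact permutation tests in Python 3.11.15 (numpy 2.4.6, scipy 1.17.1, pandas 2.3.3), and figures matplotlib 3.10.9. Thinning to 10491 reads used seed 1. The model fits were tested on simulated data. Within-group pairs of weaning libraries differed by more than read-counting noise (chi-square per degree of freedom 39.4 to 249), so none were merged, which does not show that they are separate animals.

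Alternatives were other scalings (DESeq2 size factors, library size), other tests (DESeq2 1.42.0, limma-voom in limma 3.58.1), no filter on low counts, other sets of fitted libraries and each weaning library left out. Leaving out libraries 1 and 5, or 1, 5, 11 and 19, was chosen after seeing the data. The members, lists and tests were chosen with earlier results of these data known. Taxa were named where called, among the 10 most abundant families, genera or variants, among the 12 most abundant called variants in each direction, in genera with calls in both directions, in lists of 1 genus, or where the interaction passed. Names outside this rule (Desulfovibrio, Bacteroides rows 44 and 47, Helicobacter row 155, Blautia row 275, Lachnoclostridium row 314, Gastranaerophilales rows 169 to 171, and rarer called variants) were chosen after their values were seen.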

Additional observations from a re-analysis of the deposited data

Results flagged for a closer look

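Single libraries stood far from the other 4 of their group in 14 of 77 groups by Dixon's criterion. Its rate of about 1 in 20 by chance holds for normally distributed values, which shares of reads need not be. The groups also overlap in part, as Tannerellaceae and unclassified Tannerellaceae do, so no excess over chance is claimed. In 3 of the 14 (Akkermansiaceae and Enterobacteriaceae in WT, Blautia in WT) the other 4 libraries had 0 reads, so the criterion flagged them whatever the value. KO library 1 was low in expected variants (52.9) and high in Akkermansiaceae (5.68%), Enterobacteriaceae (0.856%), Tannerellaceae (8.56%) and unclassified Tannerellaceae (4.40%). KO library 5 was high in Mucispirillum (6.50%), and KO library 2 in Ruminococcus (0.158%). Library 5 was also high in mitochondrial reads (0.653%), a measure outside the bacterial comparisons, where the highest WT library reached 0.0649%.

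Among WT mice, library 8 was high in Gastranaerophilales (0.533%) and was the only one with Enterobacteriaceae (0.00382%). Library 9 was high in Bacteroidaceae (15.0%). Library 10 was low in the inverse Simpson index (6.24) and the only one with Akkermansiaceae (0.0106%), and library 6 was the only one with Blautia (0.0298%).

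The KO minus WT difference at weaning differed from that of co-housed mice by edgeR's interaction test for Clostridia UCG-014, by -9.57 on the log2 scale as a family and -10.09 as a genus. It differed for unclassified Erysipelotrichaceae by -11.20, for Ureaplasma by -4.84, and for 18 variants. The values of Clostridia UCG-014 and unclassified Erysipelotrichaceae rest on 0 reads in KO mice at weaning and are fitted values, not sizes. Causes of these values were not tested.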

How the results depend on the processing

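No paired analysis was possible because the groups share no replicate number and the labels tie no mouse, cage or litter across groups. In every setting where they were tested, 11 variants, 8 genera and 4 families kept their call. The 61 called variants became 37 in limma-voom, 14 without libraries 1 and 5 and 15 without libraries 1, 5, 11 and 19, and 27 to 52 with 1 library left out. The 18 variant interactions became 8, 4 and 8 under the same settings and 8 to 21. The 17 genera became 27 with library size scaling, 8 with only the weaning libraries fitted, 10 without libraries 1 and 5 and 14 to 22 with 1 left out. The 3 genus interactions became 8 in DESeq2, 8 without a filter, 1 without the 4 libraries and 3 to 8 with 1 left out. The 8 families became 15 with library size scaling, 5 with only the weaning libraries, 5 with weaning and co-housing libraries, 4 without libraries 1 and 5, 5 without the 4 libraries and 7 to 12 with 1 left out. The 1 family interaction became 2 with DESeq2 size factors, 3 in DESeq2, 2 in limma-voom, 3 without a filter and 1 to 5 with 1 left out.

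By Bray-Curtis, the part taken by genotype was 19.5% over genera and 16.0% over families, against 21.7% to 29.8% over variants with 1 library left out. Over genera and over families, the Bray-Curtis mean of all splits of 5 against 5 was 11.1%, which the number of libraries fixes in advance. By Jaccard the part taken by genotype was 25.3% over genera and 31.9% over families (exact permutation, unadjusted p = 0.00794 for each). The inverse Simpson difference was 2.42 without libraries 1 and 5 (exact permutation, adjusted p = 0.0893, where 3 against 5 libraries cannot give an unadjusted p under 0.0179) and 2.53 to 3.58 with 1 left out. The difference of the leading variant ran from -8.72 to -5.19 percentage points with 1 left out, and that of lactic acid bacteria from -0.609 to -0.267. Library size scaling moved the median log2 fold change of variants by 0.39, of genera by 0.76 and of families by 0.60, and DESeq2 size factors that of families by 0.12.

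With 1 library left out, the log2 fold changes ran from -1.19 to 0.66 for Bacteroidaceae, -0.45 to 0.24 for Helicobacteraceae, -1.26 to 0.18 for Sutterellaceae, -0.61 to 3.24 for Tannerellaceae, -1.001 to 0.11 for Bacteroides and -0.23 to 2.37 for Mucispirillum. Some uncalled log2 fold changes turned in sign. With library size scaling these were Mycoplasmataceae (0.24), Bacteroidaceae (0.26), Helicobacteraceae (0.40), Mycoplasma (0.45), Bacteroides (0.26), Helicobacter (0.40) and the NK4A136 group (0.064). Without library 9 they were Bacteroidaceae (0.66), Sutterellaceae (0.18) and Bacteroides (0.11). Helicobacteraceae turned without library 3 (0.19), 4 (0.18), 7 (0.13) or 8 (0.24). Tannerellaceae turned without library 1 (-0.61), without libraries 1 and 5 (-0.31) and without the 4 libraries (-0.31). Mucispirillum turned without library 5 (-0.23), libraries 1 and 5 (-0.14) and the 4 (-0.14), and unclassified Lachnospiraceae in limma-voom (-0.21). The cause was not tested. Depth limits variants near 3 counts per library, where 0 reads do not show absence.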
